A study of Mus musculus with 10 samples.

Results

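The imprinted growth genes described here are 10 genes chosen by symbol from the 24537 genes of a heart RNA-seq count table: H19, Igf2, Dlk1, Meg3, Rian, Mirg, Peg3, Cdkn1c, Grb10 and Plagl1. Hearts came from 10 mice aged 6 weeks, 5 littermate controls with the genotype Rosa26-rtTA2+/-;TRE-SOD2-shRNA-/- and 5 iSOD2 mice with the genotype Rosa26-rtTA2+/-;TRE-SOD2-shRNA+/-. In iSOD2 mice doxycycline drives a short hairpin RNA against Sod2, which encodes a manganese superoxide dismutase of mitochondria, from a tetracycline response element at the Col1a1 locus, with the transactivator under the Rosa26 promoter and so not limited to heart cells. All dams were wild-type C57BL/6J females given doxycycline during gestation only, so the controls shared the doxycycline and the transactivator and lacked the hairpin. The shRNA allele came from the father in every iSOD2 mouse. Litter A gave 2 controls (1 and 2) and 2 iSOD2 mice (7 and 8). Litter B gave 3 controls (3, 4 and 6) and 3 iSOD2 mice (5, 9 and 10). Of the 5 controls 3 were male, and of the 5 iSOD2 mice 2 were male. Litter A had 3 males and 1 female, and litter B had 2 males and 4 females.

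Imprinted genes are read from 1 parental copy, the choice being set by DNA methylation laid down in the egg or the sperm and kept through embryonic life. Many paternally expressed ones promote fetal growth and many maternally expressed ones restrain it, and in rodents several of them are switched down in most organs after birth. The 10 genes lie in several such regions. On distal chromosome 7, Igf2 encodes the fetal insulin-like growth factor and is read from the paternal copy, whereas the neighbouring noncoding RNA H19 is read from the maternal copy under the same control region and holds the precursor of miR-675. Farther along the same chromosome is Cdkn1c, a maternally expressed inhibitor of cyclin-dependent kinases. On distal chromosome 12, paternal Dlk1 encodes a transmembrane protein of the Notch ligand family, and Meg3, Rian and Mirg are maternal noncoding RNAs that host many microRNAs and small nucleolar RNAs. Peg3 (proximal chromosome 7) and Plagl1 (chromosome 10) encode zinc finger proteins from the paternal copy. Grb10 (chromosome 11) encodes an adaptor that restrains insulin and insulin-like growth factor receptor signalling and is maternal in most tissues. A count over both alleles, as here, does not say which parental copy was read.

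H19 and Igf2 were the only members with called differences between groups of mice, so the RNA product and start region that RefSeq places there are shown (GRCm38.p6, 5′ to 3′). H19 occupied chr7:142575530-142578146 on the minus strand and the counted Igf2 transcript occupied chr7:142650768-142658804 on the same strand, with 72621 bp between them. The mature arms of miR-675, from within H19, have the seed (bases 2 to 8) in capitals:
mmu-miR-675-5p: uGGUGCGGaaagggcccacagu
mmu-miR-675-3p: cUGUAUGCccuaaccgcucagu
The seeds of the 2 arms differ. The start of Igf2, chr7:142658755-142659054 on the minus strand, runs from 250 bases before to 50 bases after the start of the counted transcript and has the single GC box match (GGGCGG, searched on both strands) in capitals:
Igf2 start region: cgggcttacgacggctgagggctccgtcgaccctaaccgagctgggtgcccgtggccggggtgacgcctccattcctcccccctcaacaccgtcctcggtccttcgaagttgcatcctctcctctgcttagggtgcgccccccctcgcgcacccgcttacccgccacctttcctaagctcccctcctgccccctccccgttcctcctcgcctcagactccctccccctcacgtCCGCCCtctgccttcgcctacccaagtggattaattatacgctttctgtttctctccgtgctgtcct
This window held 24 CpG dinucleotides, against a median of 7 over all RefSeq promoter windows of this length, and no TATAAA on either strand. Of all these windows 35.7% held GGGCGG, 13.6% held TATAAA and 1.08% held GGGGCCCC, the last motif searched (both strands), which was in the Peg3 window and in no other window of the 10 genes. A match is a description of these letters and not a binding site. Igf2 had 4 RefSeq windows, Grb10 and Meg3 had 2 each, and Dlk1, Rian, Mirg, Peg3 and Plagl1 had 1 each. H19 and Cdkn1c had no window, so their start regions were not searched. Another Igf2 window, chr7:142657447-142657746, held 2 GC box matches.

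Library totals, here the counts summed over the 24537 genes, ranged from 16448090 to 24263086. The deposited column headers give larger totals, which were not used for scaling. Sod2 itself, the target of a hairpin that was no longer induced at 6 weeks, differed between genotypes by 0.03 on the log2 scale (SE 0.05, adjusted p = 0.81, DESeq2). Controls had 10573 ± 588 and iSOD2 mice 10781 ± 449 normalized counts, the counts divided by a size factor per library (mean ± SD, n = 5 per genotype). The 7 ventricular cardiomyocyte markers had a mean level of 17.09 to 17.29 on the log2 scale in all hearts. Hepatocyte markers, genes of another organ, had a mean log2 level of 4.01 in control 1, 7.58 to 8.95 in the other controls and 8.29 to 9.83 in iSOD2 mice. That level was 1.78 higher in iSOD2 mice (exact permutation p = 0.016, adjusted over 10 marker lists 0.16) and 1.6 higher in litter B (exact p = 0.095). Heart iSOD2 10 stood apart with atrial markers at 7.41 against 4.41 to 5.04 in the other iSOD2 hearts and epicardial markers at 5.21 against 3.07 to 3.52. In bulk tissue, fewer cells of a type and less RNA per cell cannot be told apart.

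In these young adult hearts the 10 genes spanned a wide range of levels per exon length. Grb10 was the most abundant with 34.6 ± 2.45 RPKM, counts scaled by exon length and library total (SD, n = 10), followed by H19 with 13.9 ± 2.78. Cdkn1c had 8.46 ± 1.21, Igf2 had 7.50 ± 1.32 and Peg3 had 7.07 ± 0.993. These 3 neighbours were not separated by mouse, since Cdkn1c was above Igf2 in 8 of 10 hearts and Igf2 above Peg3 in 5 of 10, whereas H19 was above Cdkn1c in 10 of 10 although their ranges overlapped. Rian followed at 3.34 ± 0.309 and Plagl1 at 2.02 ± 0.25, each with a range apart from its neighbours. Along chromosome 12 the 3 maternal RNAs thus had unequal levels, with Meg3 at 0.439 ± 0.0390 and Mirg at 0.387 ± 0.149, not separated from each other (Meg3 above Mirg in 6 of 10 hearts).

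**Figure D1:**
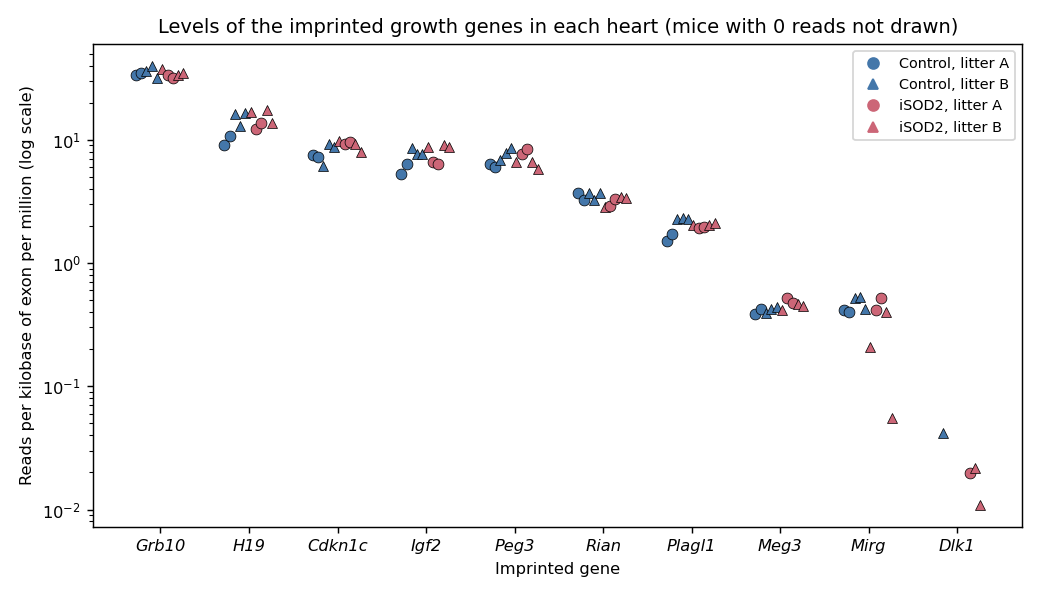
RPKM, counts scaled by exon length and library total (log axis), for the 10 imprinted genes in each heart, ordered by mean; circles are litter A, triangles litter B, blue controls and red iSOD2 mice, and hearts with 0 reads are not drawn. Grb10 lies between 31.7 and 39.7 in every heart, and Dlk1 has points for 4 hearts only.

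Dlk1 was at the limit of detection. It had 0 counts in 6 of 10 libraries, 3 counts in control 3, 2 each in iSOD2 8 and iSOD2 9 and 1 in iSOD2 10. A count of 0 in these libraries allows up to 3 counts, or 0.0285 to 0.0421 RPKM for Dlk1, by counting error only. With 8 counts in all it fell below the minimum of 10 for testing, no fold is given for it, and 9 of the 10 genes were tested. Mirg was close to that limit too, with 1.5 to 15.5 counts per library.

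Exposure in utero to the Sod2 hairpin was not followed by a called difference in any of the 9 tested genes at 6 weeks. A gene was called where DESeq2 gave an adjusted p of at most 0.05 and an absolute log2 fold change above 0.25, and by this rule 2.96% of genes with an adjusted p were called for genotype. DESeq2 gave 7 of the 9 an adjusted p, and 0 of 7 were called. At an unadjusted p under 0.05 it had 1 of 9 (Cdkn1c), against 13.2% of all genes tested, and edgeR had 0 called and 2 of 9 (Cdkn1c and Rian) at that unadjusted level. Of the 9, 4 were higher and 5 lower in iSOD2 hearts, with a median log2 fold change of -0.02 against -0.0016 over all genes, and the groups overlapped for all 9, against 3.74% of genes tested whose genotype groups did not overlap.

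Cdkn1c, the kinase inhibitor, had 307, 308, 246, 361 and 344 normalized counts in controls 1, 2, 3, 4 and 6, and 388, 385, 379, 374 and 305 in iSOD2 5, 7, 8, 9 and 10. Every iSOD2 heart but iSOD2 10 was above all 5 controls. The difference was 0.22 on the log2 scale (SE 0.11, unadjusted p = 0.041, adjusted p = 0.22, DESeq2). Without iSOD2 10 it was 0.28 with an adjusted p of 0.11, and without control 3 it was 0.15 with an adjusted p of 0.62 (DESeq2). Among males (2 iSOD2 and 3 control hearts) the 2 genotypes did not overlap, 380 against 287 on average, and neither did they for Meg3 and Rian. Among females (3 iSOD2 and 2 control hearts) the Cdkn1c means were 358 and 353, and only Plagl1 had genotypes without overlap there. The interaction of genotype with sex for Cdkn1c was -0.38 (SE 0.22, unadjusted p = 0.084, not called, DESeq2), with an exact permutation p of 0.14. The share of all genes separated among males or among females was not computed. With so few hearts, separation is not rare for a gene that does not differ.

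Rian had 279, 255, 271, 237 and 269 normalized counts in the controls and 208, 220, 240, 254 and 238 in the iSOD2 hearts, in the same order of mice. The lower values were in iSOD2 mice, with overlap between 237 and 254. The log2 fold change was -0.18 (SE 0.09, 95% interval -0.36 to 0.00, adjusted p = 0.25, DESeq2). Meg3, its neighbour 35294 bp upstream, had 94.1, 107, 92.8, 98.8 and 102 in controls and 98.0, 126, 111, 112 and 104 in iSOD2 hearts, a difference of 0.15 in the opposite direction (SE 0.13). Mirg had 10.9, 11.9, 13.8, 13.8 and 11.1 in controls and 5.07, 11.4, 14.1, 10.8 and 1.89 in iSOD2 hearts, so that only iSOD2 5 and iSOD2 10 were far below the controls. Its log2 fold change was -0.51 (SE 0.45) and was -0.26 without iSOD2 10, the heart with high atrial and epicardial markers, whose part in the result was not tested.

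The remaining 5 genes did not pass the genotype test either. H19, the maternal RNA, was 0.16 higher (SE 0.15, 95% interval -0.13 to 0.45) and Igf2, the growth factor, 0.14 higher (SE 0.13, -0.12 to 0.39) in iSOD2 hearts on the log2 scale. With the hepatocyte marker level as a covariate both turned to -0.08. Peg3 was at -0.04 (SE 0.11), Grb10 at -0.06 (SE 0.07) and Plagl1 at -0.02 (SE 0.11), and the widest of these 3 intervals (95%) ran from -0.26 to 0.19, for Peg3. Plagl1 was between 213 and 223 normalized counts in all 5 iSOD2 hearts, against 170 to 249 in controls.

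**Figure D2:**
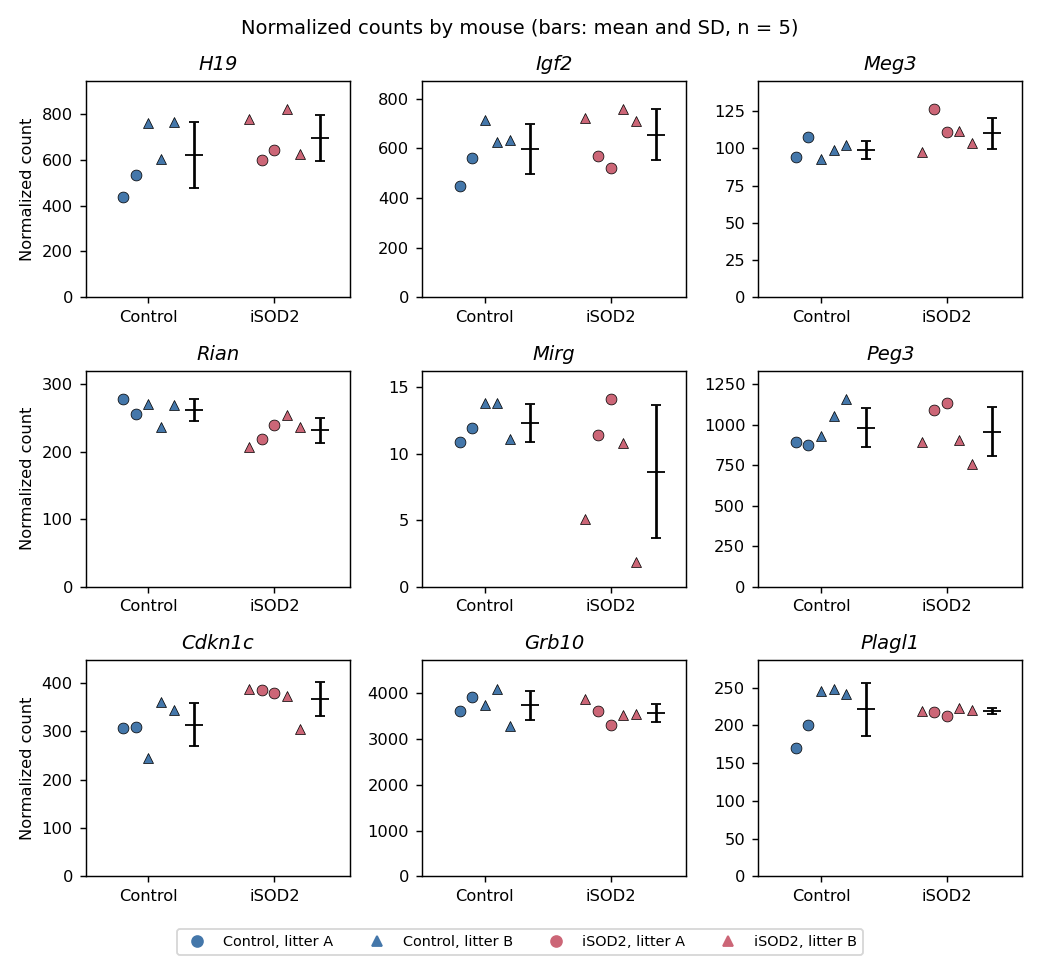
Normalized counts of the 9 tested genes in each heart, by genotype, with circles for litter A and triangles for litter B; bars show the mean and SD (n = 5). The genotypes overlap in every panel, and the litter A hearts lie low among the controls for H19, Igf2 and Plagl1.

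Of the ratios between neighbouring genes, that of Rian to Meg3 differed between genotypes, and its call depended on the adjustment and on single hearts. The ratio of Rian to Meg3 in normalized counts was 2.96, 2.38, 2.92, 2.40 and 2.63 in controls and 2.12, 1.74, 2.16, 2.28 and 2.29 in iSOD2 hearts. All 5 iSOD2 hearts were below all 5 controls. On the log2 scale the ratio averaged 1.40 ± 0.15 for controls and 1.08 ± 0.16 for iSOD2 hearts (SD, n = 5 per genotype), a difference of -0.33 (exact permutation p = 0.0079, two-sided, the smallest that 5 against 5 can give, adjusted over 6 ratio tests 0.048). Permuted within litters, the exact p was 0.017, the smallest that this arrangement can give, and 0.10 adjusted over the 6 tests. With no other ratio as low, even this smallest p could not pass the adjustment, so the permutation within litters cannot decide. Leaving out any 1 heart gave differences of -0.37 to -0.26, and the adjusted exact permutation p was 0.095 without iSOD2 5 and 0.12 without iSOD2 7. Expression of long against short genes also moved with genotype, the slope of log2 expression on log2 exon length being 0.0063 to 0.053 in controls and -0.051 to -0.018 in iSOD2 hearts. Meg3 has 11467 bp of exons and Rian 3558 bp, and with that trend removed, an alternative added after seeing the data, the difference in the ratio was -0.44 (exact p = 0.0079).

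The ratio of Mirg to Meg3 was 0.109 to 0.149 in controls and 0.0902 to 0.127 in 3 iSOD2 hearts, with 0.0517 in iSOD2 5 and 0.0182 in iSOD2 10. The log2 difference was -0.96 (exact permutation p = 0.040, adjusted 0.12), and without iSOD2 10 it was -0.51 (exact p = 0.063). Leaving out any 1 control gave exact p of 0.087 to 0.14. The adjusted p passed in 2 of 13 alternatives and missed in 11. It passed with the exon length trend removed (exact p = 0.016, adjusted 0.048) and without iSOD2 8 (exact p = 0.0079, adjusted 0.048). H19 over Igf2 was 0.883 to 1.23 over all hearts and differed by 0.04 between genotypes (exact p = 0.63) and by -0.01 between litters (exact p = 0.92) on the log2 scale. No ratio of Meg3 to Dlk1 could be formed, since Dlk1 was at 0 in 6 hearts.

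**Figure D3:**
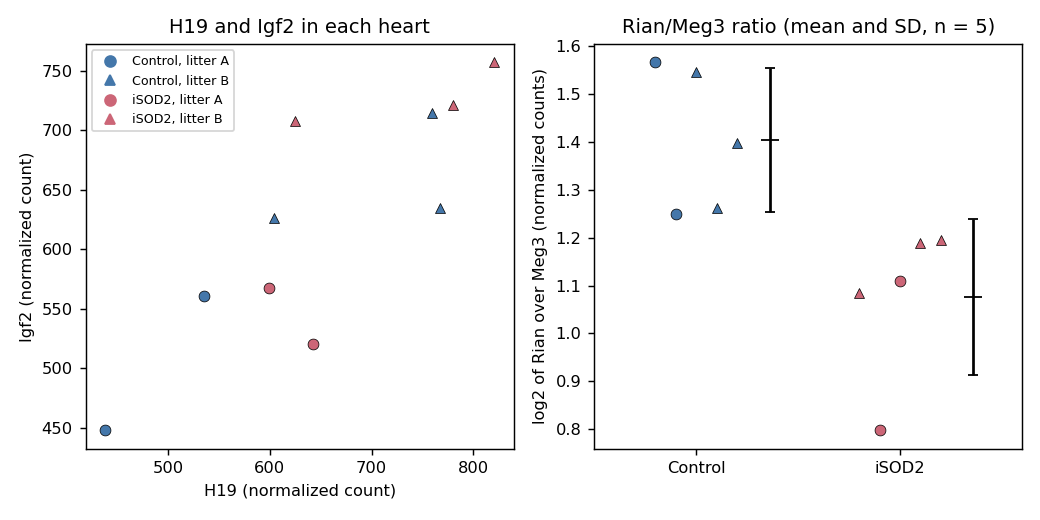
Left, Igf2 against H19 in normalized counts, 1 point per heart, with colours for genotype and shapes for litter; right, the log2 ratio of Rian to Meg3 by genotype, with mean and SD (n = 5). All litter B hearts lie above all litter A hearts on the Igf2 axis while the litters overlap on the H19 axis, and the Rian/Meg3 values of controls, 1.25 to 1.57, do not overlap those of iSOD2 hearts, 0.80 to 1.20.

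H19 and Igf2 were higher in litter B than in litter A. This compares 1 litter with 1 litter, so its p-values measure the spread between mice and not between litters. In a DESeq2 fit with genotype as a covariate 3.5% of genes with an adjusted p were called between litters, and 2.52% were called higher in litter B. Of the 9 tested genes 2 were called, both higher in litter B, with a median log2 fold change of -0.02 over the 9 and -0.0036 over all genes. Igf2 had 448, 561, 568 and 520 normalized counts in litter A (control 1, control 2, iSOD2 7 and iSOD2 8). In litter B it had 715, 626, 634, 721, 757 and 708 (controls 3, 4 and 6 and iSOD2 5, 9 and 10). Each heart of litter B was above each heart of litter A, in both genotypes and both sexes, with 1 female in litter A. The log2 fold change was 0.41 (SE 0.08, fold 1.33, 95% interval 1.19 to 1.47, adjusted p = 4.2e-05, DESeq2), and edgeR gave an adjusted p of 0.010.

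H19 had 438, 535, 599 and 642 in litter A and 760, 604, 767, 780, 821 and 625 in litter B, where control 4 and iSOD2 10 fell within the range of litter A. The mean log2 difference was 0.60 among males and 0.10 among females, with 1 female in litter A. It was 0.54 among controls and 0.25 among iSOD2 hearts. Over all hearts, with genotype but not sex as a covariate, the log2 fold change of H19 was 0.40 (SE 0.11, fold 1.32, 95% interval 1.14 to 1.52, adjusted p = 0.0080, DESeq2). With edgeR the adjusted p was 0.058, and without control 1 the DESeq2 adjusted p was 0.12 with a log2 fold change of 0.31. Control 1 was also the heart with the low hepatocyte marker level. With that level as a covariate, also added after seeing the data, the litter difference was 0.28 for H19 (adjusted p = 0.54) and 0.32 for Igf2 (adjusted p = 0.12), neither called by DESeq2. The 7 ventricular markers were 0.12 lower in litter B without overlap (exact p = 0.0048, adjusted over 10 lists 0.048), and endothelial markers were 0.16 higher (exact p = 0.019, adjusted 0.095), whose part in the result was not tested.

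Plagl1, whose product binds DNA, was higher in litter B too without being called. It had 170, 201, 218 and 213 normalized counts in litter A and 246, 249, 242, 220, 223 and 221 in litter B. The litters did not overlap, as was the case for 2 of the 9 genes (Igf2 and Plagl1) and for 4.1% of all genes tested. Its log2 fold change was 0.22 (SE 0.11, unadjusted p = 0.038, adjusted p = 0.30, DESeq2). The other 6 genes had litter differences between -0.46 (Mirg) and 0.03 (Grb10), with adjusted p of 0.75 to 0.97 (DESeq2).

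**Figure D4:**
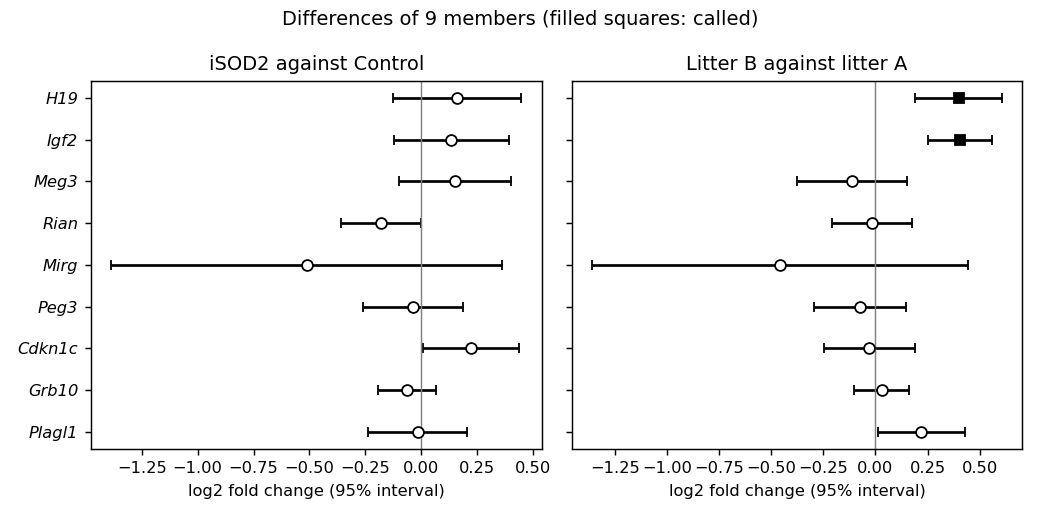
Log2 fold changes of the 9 tested genes with 95% intervals, for iSOD2 against Control (left) and for litter B against litter A (right); filled squares mark called genes. Only Igf2 and H19 are called, in the litter comparison, at 0.41 and 0.40.

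Around H19 and Igf2, within 100000 bp, no other tested gene was called between litters. Mir675, counted as its own row inside H19, had 8 to 22.5 counts per library and a litter difference of 0.56 (SE 0.38, adjusted p = 0.56, DESeq2). Mrpl23, a mitochondrial ribosomal protein gene, was at -0.02 (SE 0.07), Lsp1 at 0.30 (SE 0.10, adjusted p = 0.052, DESeq2) and Igf2os, on the strand opposite to Igf2, at -0.38 (SE 0.48). Ins2 had 0 counts in every library. Cdkn1c, 799534 bp beyond Igf2, was at -0.03 (SE 0.11) between litters.

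For Peg3 the direction of the genotype difference was opposite in the litters. In litter A the controls had 892 and 875 normalized counts and the iSOD2 hearts 1090 and 1134. In litter B the controls had 933, 1053 and 1160 and the iSOD2 hearts 896, 908 and 760. Within each litter the genotypes did not overlap. The interaction was -0.63 on the log2 scale (SE 0.16, unadjusted p = 8.3e-05, adjusted over all genes 0.29, DESeq2), and 1.79% of all genes had an unadjusted interaction p under 0.05. With genotypes exchanged within litters the exact p was 0.017, the smallest that this design can give. Sex was not balanced within litter A, where both controls were male and iSOD2 8 was the only female. The interaction of genotype with sex for Peg3 was -0.40 (SE 0.21, unadjusted p = 0.055, not called, DESeq2, exact permutation p = 0.13). Whether litter or sex went with the opposite directions was not tested. In litter A, with 2 hearts per genotype, the genotypes also did not overlap for H19, Meg3, Rian, Cdkn1c and Plagl1. In litter B they also did not overlap for Mirg and Plagl1. The share of all genes separated within litters was not computed. Peg3os, a row on the opposite strand within Peg3, had 102 normalized counts on average against 970 for Peg3, and reads of the pair cannot be told apart if strand was not used in counting.

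Plagl1 showed the same arrangement with smaller differences, iSOD2 above Control in litter A (215 against 185 on average) and below it in litter B (221 against 245), without overlap in either litter. Its interaction was -0.37 (SE 0.22, unadjusted p = 0.089, adjusted p = 1.0, DESeq2, exact p = 0.017). Mirg had an interaction of -1.31 (SE 0.98, adjusted p = 1.0, DESeq2). Hymai, which overlaps Plagl1 on the same strand, had 21.2 normalized counts on average, and their shared reads could not be separated. None of the 9 genes was called for an interaction of genotype with litter or with sex. Over all genes with an adjusted p, 1 of 17739 was called for the interaction with litter and 0 of 17743 for that with sex (DESeq2). Between sexes 0 of 9 were called, against 0.483% of genes with an adjusted p, with log2 fold changes of -0.29 (Mirg) to 0.12 (Plagl1), 0 of 9 at an unadjusted p under 0.05 with DESeq2 and 0 of 9 with edgeR.

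**Figure D5:**
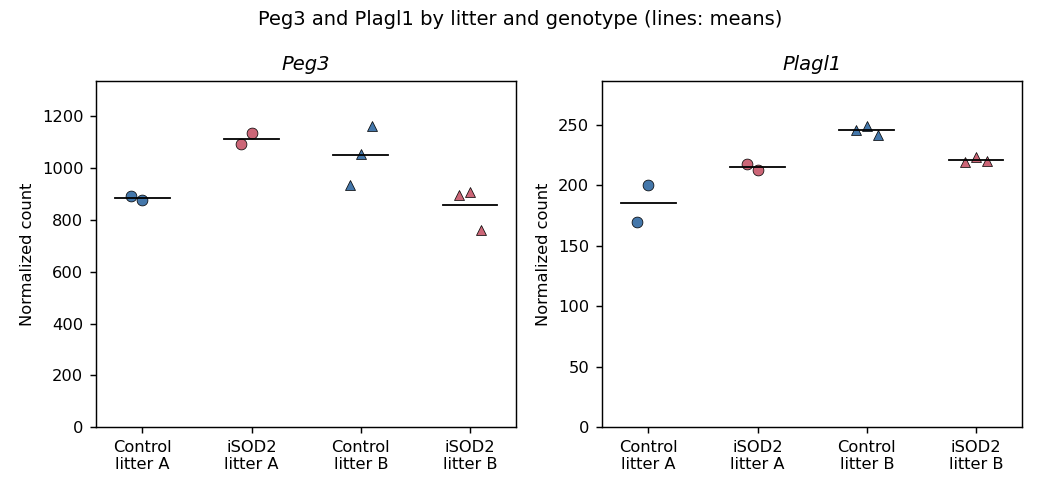
Normalized counts of Peg3 and Plagl1 by litter and genotype, 1 point per heart, with lines at the means (2 hearts per genotype in litter A, 3 in litter B). In both panels iSOD2 hearts lie above controls in litter A and below them in litter B.

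Across the 10 hearts, 6 pairs of genes were compared on log2 normalized counts. H19 and Igf2 rose and fell together with r = 0.85 (permutation p = 0.0026, adjusted 0.015) and rho = 0.83 (permutation p = 0.0051, adjusted 0.030). Without control 1 and iSOD2 9, the hearts farthest from the median of H19, r was 0.62, within litter B it was 0.53 (n = 6, exact permutation p = 0.22), and with genotype and litter means removed it was 0.59. Plagl1 and H19 had r = 0.75 (permutation p = 0.013, adjusted 0.040) and rho = 0.54 (permutation p = 0.11, adjusted 0.34), with r = 0.72 without control 1 and control 4. Within litter B that relation did not hold (r = -0.24, n = 6), and without control 1 alone r was 0.44. Meg3 and Rian had r = -0.42 over all hearts (permutation p = 0.23) and 0.00 with genotype and litter means removed. The pairs Meg3 with Mirg (r = 0.08), Rian with Mirg (r = 0.38) and Meg3 with Dlk1 (r = -0.09) had permutation p of 0.29 to 0.81, and Dlk1 was at 0 in 6 of the 10.

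Likeness was taken over 12150 other genes whose mean normalized count reached 50 (12151 for Mirg). Those most like H19 over the 10 hearts were 4930578C19Rik (r = 0.92), Itm2c (0.92) and Hipk1 (0.87), with Igf2 ninth in the order (0.85). Most like Igf2 were Hipk1 (0.94), Slc25a25 (0.94) and Rapgef5 (0.93), with H19 only at place 53 in that order. For Rian they were Dab2 (0.95), Clec3b (0.92) and Khdrbs1 (0.92), and for Meg3 Dmd (0.92), Akap9 (0.92) and Zfp386 (0.89). Cdkn1c was closest to Swi5 (0.97), Ccs (0.94) and Bloc1s1 (0.93), Grb10 to Cep152 (0.95), Raph1 (0.93) and Ammecr1 (0.90), and Peg3 to Sned1 (0.94), Apba1 (0.90) and Zfp169 (0.90). Plagl1 was closest to Ptbp1 (0.92), Scube1 (0.92) and Akap5 (0.91), and Mirg to Usp7 (0.90), Ppfia4 (0.89) and Fzd5 (0.87). None of these lists holds another of the 10 genes. Hipk1, Slc25a25 and Rapgef5 were themselves higher in litter B (0.19, 0.38 and 0.33 on the log2 scale). Among so many genes and only 10 hearts, some r this high arise by chance, and no baseline was computed.

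Of 55 other imprinted genes listed, 53 were in the table and 44 were tested. For genotype 0 of the 24 with an adjusted p were called, against 2.96% of all genes with one, with a median log2 fold change of -0.03. Igf2r, the maternal receptor that clears Igf2 protein, was 0.20 lower in iSOD2 hearts (SE 0.06, adjusted p = 0.014, DESeq2, against 0.13 with edgeR), below the fold needed for a call. Over 20 alternatives the Igf2r difference ranged from -0.23 to -0.11, with adjusted p of 0.0053 to 0.64 (DESeq2 or edgeR). Its normalized counts averaged 11298 ± 631 for controls and 9805 ± 630 for iSOD2 hearts (SD, n = 5 per genotype). Slc22a3, an organic cation transporter of the same region, was at -0.58 (SE 0.17, unadjusted p = 0.00043, with no adjusted p from DESeq2), Commd1 at 0.22 (adjusted p = 0.11) and Cd81 at 0.11 (adjusted p = 0.33, DESeq2).

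Between litters 5 of the 42 other imprinted genes with an adjusted p were called, against 3.5% of all genes with one. Mest, a paternally expressed gene with growth effects, was 1.82-fold higher in litter B (432 ± 61.5 against 238 ± 27.8 normalized counts, SD, n = 6 and 4, adjusted p = 3.2e-10, DESeq2), without overlap. Snrpn and Snurf were 0.38 higher on the log2 scale (adjusted p = 0.0121 and 0.0125, DESeq2), and they share a transcript, so they are 1 measurement. Zrsr1 was 0.29 lower and Ddc 0.61 lower in litter B (adjusted p = 0.0023 and 0.013, DESeq2). With edgeR 2 of the 5 were called, Mest and Zrsr1.

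In the signalling path of Igf2, 27 of 29 listed genes were tested. Igf1, the postnatal ligand, was at -0.11 for genotype and 0.23 for litter (SE 0.14 and 0.12), and the receptors Igf1r and Insr were at -0.04 and -0.10 for genotype (SE 0.08 and 0.06). Igfbp3, a binding protein that holds the ligands outside cells, was the 1 gene called for genotype of the 19 with an adjusted p. Over all genes with an adjusted p, 2.96% were called for genotype. Igfbp3 was 0.38 higher in iSOD2 hearts (SE 0.11, adjusted p = 0.023, DESeq2, against 0.12 with edgeR). Controls averaged 351 ± 46.8 and iSOD2 hearts 455 ± 59.0 normalized counts. For genotype Igfbp7 was at 0.27, Igfbp5 at -0.22 and the adaptor Irs1 at -0.23, with adjusted p of 0.19 to 0.25 (DESeq2). Between litters 4 of the 25 with an adjusted p were called, against 3.5% of all genes with one. Beside Igf2 these were Igfbp7, 0.38 higher in litter B, Igfbp5, 0.28 lower, and the adaptor Irs2, 0.88 lower (300 ± 62.7 against 554 ± 98.6 normalized counts, SD, n = 6 and 4, adjusted p = 1.2e-06, DESeq2).

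Genes that keep or remove the methylation of imprints were not called for genotype in any of the 10 with an adjusted p, against 2.96% of all genes with one. Of the 14 tested, 2 were higher in iSOD2 hearts, against 49.6% of all genes tested, and the median log2 fold change was -0.10, a description of the list with no test. The exon length trend that moved with genotype was not removed for this count. Tet3, a DNA demethylase, was 0.25 lower without reaching the fold for a call (SE 0.07, adjusted p = 0.011, DESeq2, against 0.10 with edgeR). Over 20 alternatives the Tet3 difference ranged from -0.30 to -0.14, with adjusted p of 0.0054 to 0.38 (DESeq2 or edgeR). The genotypes did not overlap, at 1490 ± 114 normalized counts for controls and 1256 ± 80.9 for iSOD2 hearts. Dnmt3a was at -0.14, Tet1 at -0.26 and Dnmt1 at -0.16, with adjusted p of 0.12 to 0.26 (DESeq2). Uhrf1, the cofactor that brings Dnmt1 to newly copied DNA, was 2.45-fold higher in litter B (128 ± 31.8 against 52.3 ± 6.70, adjusted p = 3.7e-08, DESeq2).

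In the cell cycle path in which Cdkn1c acts, 17 of 18 listed genes were tested. For genotype 0 of the 9 with an adjusted p were called, against 2.96% of all genes with one. Cdk4 was at 0.14, Cdkn1b at 0.12 and Cdk6 at -0.17, with adjusted p of 0.15 to 0.44 (DESeq2). Between litters 6 of 17 were called, all higher in litter B, with a list median of 0.25. Over all genes with an adjusted p 2.52% were called higher in litter B. Cdk1, the mitotic kinase, was 3.05-fold higher (51.3 ± 11.6 against 16.8 ± 3.52 normalized counts, adjusted p = 2.3e-06, DESeq2), Ccna2 1.88-fold and Ccnd1 1.55-fold. Ccnb1, Cdk6 and Ccnd3 were 1.29, 0.31 and 0.25 higher on the log2 scale (adjusted p of 0.012 to 0.019, DESeq2), and edgeR called 4 of the 6, without Cdk6 and Ccnd3. None of the 6 tested kinase inhibitors was called between litters.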

How the data were processed

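Total RNA from heart was made into stranded, rRNA-depleted libraries. The authors checked reads with FastQC, aligned them with STAR to mm10 and counted exons with HOMER, which wrote the deposited expected counts per gene (steps of 0.5, no normalization, 1 merged row per gene). The deposited header names no strand setting. The table also has an exon length column, which the authors took from the annotation.

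Counts were rounded and genes with fewer than 10 counts in all were left out, leaving 17746. DESeq2 1.42.0 (R 4.3.3, Wald test, Benjamini-Hochberg adjustment) gave genotype without covariates, litter with genotype as a covariate, sex with genotype as a covariate, and the interactions. Normalized counts are rounded counts divided by size factors, or for Dlk1 the deposited counts so divided. edgeR 4.0.16 (quasi-likelihood) was an alternative, as were other filters, scalings, covariates and leaving out each mouse. Mice were grouped by the labels, each library being 1 mouse, and p-values measure the spread between these mice. With 1 litter A and 1 litter B, litter cannot be told apart from anything else that littermates shared. Ratios and marker levels were compared by exact two-sided permutation tests and correlations with 100000 permutations (Python 3.11.15). The script was tested on simulated data. Libraries of the same group differed beyond sampling noise (chi-square per gene 5.71 to 20.5). Read intervals and floors cover counting error only, and totals of 16448090 to 24263086 counts set the precision. No replicate number is shared between genotypes.

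The genes, gene lists and pairs were chosen with earlier results of these data known. Named are all 10 genes, Sod2, every called gene of the other lists with up to 4 more per list of lowest genotype p and a mean of at least 50, the 3 genes most like each of the 10, and overlapping rows whose mean normalized count reached 10. Igf1, Igf1r, Insr and the neighbours of H19 and Igf2 were chosen after their values were seen. MicroRNA and promoter sequences come from RefSeq (GRCm38.p6), which matched 16 of 16 microRNA rows inside the genes and gave promoter windows for 8 of the 10 genes.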

Additional observations from a re-analysis of the deposited data

Results flagged for a closer look

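Within the genotype groups 23 measures were examined for a heart far from the other 4, 46 groups in all. Dixon's 95% criterion was passed in 6, where chance passes about 2.3 (1 in 20). Cdkn1c was lowest in iSOD2 10 at 305 normalized counts, against 374 to 388 in the other iSOD2 hearts. The same heart had the highest atrial marker level (7.41, against 4.41 to 5.04) and epicardial marker level (5.21, against 3.07 to 3.52), on the log2 scale. The log2 ratio of Rian to Meg3 was lowest in iSOD2 7 at 0.80, against 1.08 to 1.20. Hepatocyte markers were lowest in control 1 at 4.01, against 7.58 to 8.95, and Sod2 was lowest in control 6 at 9562 normalized counts, against 10650 to 11019.

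Peg3 and Plagl1 had genotype differences of opposite direction in the 2 litters, every iSOD2 heart being above the controls in litter A and below them in litter B. The interaction was -0.63 for Peg3 (adjusted p = 0.29) and -0.37 for Plagl1 (adjusted p = 1.0) on the log2 scale (DESeq2). With 2 and 3 hearts per genotype in a litter, the smallest exact p was 0.017, which both genes had.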

How the results depend on the processing

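The Rian/Meg3 genotype difference kept its direction and an unadjusted exact permutation p under 0.05 in all 13 alternatives. Adjusted over the 6 ratio tests it passed in 10 and missed in 3 (0.10 permuted within litters, 0.095 without iSOD2 5 and 0.12 without iSOD2 7). Within litters the smallest exact p could not pass this adjustment, as no other ratio was as low. No member was called for genotype, sex or an interaction in any alternative. Over all genes, 1 was called for the interaction with litter and 0 for that with sex, with DESeq2 and with edgeR. The genotypes share no replicate numbers but share litters, and with litter as a covariate 323 genes and 0 members were called for genotype. The 281 genes called for genotype became 0 with edgeR (2723 at an unadjusted p under 0.05, lowest adjusted p 0.066), 152 with the hepatocyte level as a covariate, 133 with the exon length trend removed, 62 in litter B alone, 577 by adjusted p alone and 166 to 495 without single hearts (186, 166, 185 and 495 without controls 1, 2, 3 and 4). The 548 called between litters became 365 with edgeR (1 member), 129 with the hepatocyte covariate (0 members), an alternative chosen after seeing the data, and 300 to 705 without single hearts (300 and 1 member without control 1, 2 members otherwise). The 79 called for sex became 29 with edgeR and 41 to 147 without single hearts (46, 147 and 44 without controls 2, 3 and 4, 41 without iSOD2 7). Marker lists with an exact p under 0.05 numbered 1 for genotype (0 to 2 without single hearts) and 2 for litter (1 to 3). The cause of these shifts was not tested.

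Signs turned for genotype with the hepatocyte covariate for H19 (-0.079) and Igf2 (-0.082), and with the length trend removed for Peg3 (0.043), Plagl1 (0.051), Grb10 (2.6e-05) and the H19/Igf2 ratio (-0.011, chosen after seeing the data). Litter values turned for Rian with genotype and sex (0.015) or the hepatocyte covariate (0.013) and for Cdkn1c with the latter (0.00075). Without single hearts, genotype values ranged from -0.11 to 0.034 for Peg3, -0.10 to 0.032 for Plagl1 and -0.0061 to 0.050 for Sod2. Litter values ranged from -0.082 to 0.030 for Cdkn1c, -0.0060 to 0.071 for Grb10, -0.15 to 0.0067 for Peg3 and -0.049 to 0.018 for Rian. Ratios ranged from -0.010 to 0.11 (H19/Igf2, genotype), -0.056 to 0.068 (H19/Igf2, litter), -0.029 to 0.23 (Rian/Meg3, litter) and -1.21 to -0.51 (Mirg/Meg3, genotype, which was -0.96 with an exact p of 0.067 permuted within litters). Correlations ranged from -0.21 to 0.30 (Meg3 and Dlk1), -0.0022 to 0.21 (Meg3 and Mirg, -0.060 on RPKM), -0.75 to -0.18 (Meg3 and Rian, exact p = 0.019 without iSOD2 5) and 0.44 to 0.88 (Plagl1 and H19). Igfbp3 lost its genotype call in 9 of 20 alternatives and Igf2 its litter call in 1 of 17. Depth limits Dlk1 (8 counts in all) and Mirg (1.5 to 15.5 counts per library).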
